A study of Mus musculus with 42 samples.

Results

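Hepatokines are proteins that liver cells secrete and that act on other tissues, and the genes described here are Fgf21, its co-receptor gene Klb, Angptl4, Fst, Lect2 and Ahsg in mouse liver during the first weeks of a high-fat diet (HFD). The genes were taken by name: of 7 hepatokine-related genes listed, 6 had a probe set with that single gene symbol on the array, out of 17989 genes measured, and Gdf15 was not analysed here. Each of the 6 had 1 probe set (Fgf21 on chromosome 7, Klb on 5, Angptl4 on 17, Fst and Lect2 on 13, Ahsg on 16). Klb encodes a co-receptor and not a hepatokine, and only for short are all 6 called hepatokine genes below. Livers came from wild-type male C3HeB/FeJ mice, an inbred strain, housed singly and sampled in the random-fed state. The 18 control arrays are of mice aged 15 to 17 weeks that ate a low-fat diet (LFD) for up to 21 days. There were 8 arrays each after 7 days of HFD (15 weeks old), 14 days (16 weeks) and 21 days (17 weeks). Age and days of HFD therefore rose together among the HFD groups. The labels number the replicates without tying them to animals, so a p-value reflects only how these arrays scatter, and some of that scatter may be technical.

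FGF21 is a circulating hormone that signals where an FGF receptor meets the co-receptor beta-klotho, the product of Klb. In liver its gene is known to be driven by the fatty acid sensor PPAR-alpha, by the carbohydrate-responsive factor ChREBP and by ATF4, a factor of the amino acid and endoplasmic reticulum stress responses. ANGPTL4 is a secreted inhibitor of lipoprotein lipase and another PPAR-alpha target. Follistatin (Fst) binds and blocks activins. LECT2 is a hepatokine linked to insulin resistance in muscle, and fetuin-A (Ahsg) is an abundant plasma protein that binds the insulin receptor.

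The window around the start of Fgf21 is shown because the factors named above are known to act on sequence near it. It is the RefSeq stretch from 250 bases before to 50 bases after the annotated start (build GRCm38.p6, chr7:45615441-45615740, minus strand, printed in the direction of transcription, 58% GC), and capitals mark the matches of the motifs searched:

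Fgf21: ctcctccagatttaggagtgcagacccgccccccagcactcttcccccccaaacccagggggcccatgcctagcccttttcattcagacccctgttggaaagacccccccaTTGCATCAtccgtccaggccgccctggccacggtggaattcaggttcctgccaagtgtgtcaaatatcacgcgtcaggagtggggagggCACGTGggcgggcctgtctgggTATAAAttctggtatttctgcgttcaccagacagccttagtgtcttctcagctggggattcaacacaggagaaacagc

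The first match, TTGCATCA at -139 to -132 from the start, is the other strand of TGATGNAA, the composite element bound by C/EBP and ATF factors, which 3.97% of 32851 RefSeq windows of this length hold on either strand. The second is the E-box CACGTG at -50 to -45 (7.15% of windows) and the third the TATA box letters TATAAA at -28 to -23 (13.6%). The nuclear receptor half-site AGGTCA, present in 16.3% of windows, was not in this one, nor was DR1, the form PPAR-alpha binds, which is 2 copies of AGGTCA in a row with 1 base between them (0.0396% of windows). The carbohydrate-response element, searched as 2 copies of CACGTG with 5 bases between them, was in 0 of the 32851 windows. All motifs were searched on both strands, and DR1 contains the half-site and the carbohydrate-response element the E-box. No motif of these 6 was found in the windows of Klb, Lect2 or Ahsg, the other measured genes with an entry in the promoter table. A match is a run of letters and not a shown binding site. Only the letters given were searched, so a missing match does not show that a binding site is absent.

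All values below are log2 expression values, in which a difference of 1 is a doubling, and levels of different genes cannot be set against each other. All 6 genes lay above 2.86, the 95th percentile of 929 olfactory receptor genes, on all 42 arrays. The median standard error (SE) of a log2 difference over all genes was 0.09 against controls and 0.11 between HFD times. The mean of 11 hepatocyte markers stayed between 11.1 and 11.6 on all arrays, whereas the mean of 13 pancreatic acinar markers ran from 3.39 to 9.23. Malat1, a nuclear RNA, was higher on the arrays numbered 5 to 8 than on those numbered 1 to 4 within each HFD group. Titles of the control and 21-day arrays carry the word reanalysis and those of the other arrays do not. If this word marks a batch, that batch and the diet cannot be told apart at 7 and 14 days against controls, nor can it and time between 21 days and the earlier HFD groups. The comparison of 21 days with controls lies within the word. In whole liver, a change in the number of cells that make a transcript and a change in RNA per cell cannot be told apart.

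Fgf21, the hormone gene, was higher at each of the 3 HFD times than in controls. Its control values had a lowest of 4.51, a median of 5.16 and a highest of 5.79. After 7 days of HFD they were 5.87 at the lowest, 6.22 at the median and 6.87 at the highest, so the groups did not overlap: the lowest of the 8 HFD arrays was above the highest control. After 14 days the values were 5.55, 6.01 and 6.86, and after 21 days 5.64, 6.03 and 7.13, so the lowest HFD arrays now fell within the upper part of the control range. The highest control was exceeded by 5 of the 8 arrays at 14 days and 6 of the 8 at 21 days, and the control mean by all 8 at both times.

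**Figure D1:**
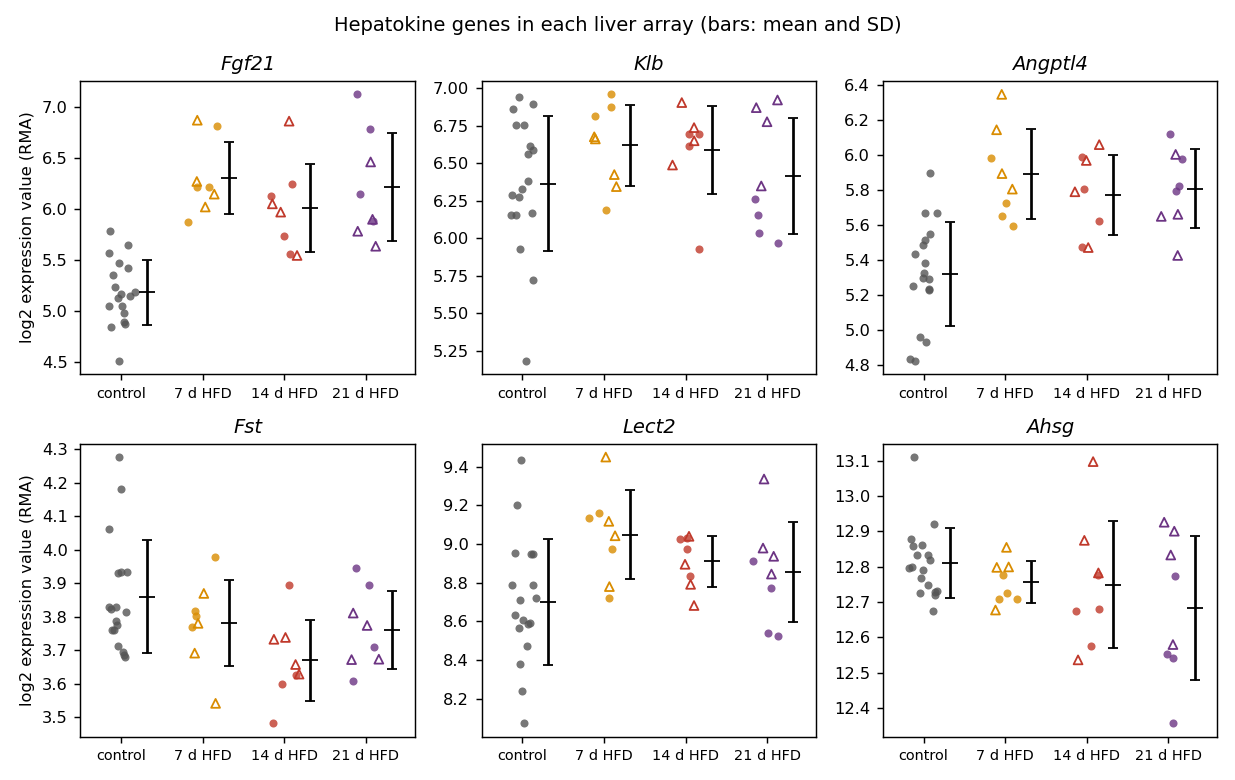
Log2 expression value of each hepatokine gene (y axes, own scale per gene) on each array of the control, 7-day, 14-day and 21-day HFD groups (x axes), 1 symbol per array, with the group mean and SD as black bars beside them. Triangles are the HFD arrays numbered 5 to 8 and circles the others; for Fgf21 all 8 arrays at 7 days lie above the highest control at 5.79.

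The mean of Fgf21 was 5.18 ± 0.32 (SD, n = 18) in controls and 6.31 ± 0.36 (n = 8) at 7 days. This was 2.17-fold higher (log2 change 1.12, SE 0.16, 95% interval 0.80 to 1.44, limma adjusted p = 4.58e-06). At 14 days the mean was 6.01 ± 0.43 (n = 8), 1.78-fold higher (log2 change 0.83, interval 0.51 to 1.15, limma adjusted p = 0.00194). At 21 days it was 6.22 ± 0.53 (n = 8), 2.04-fold higher (log2 change 1.03, interval 0.71 to 1.35, limma adjusted p = 5.74e-05). These 3 comparisons share the same 18 controls. By p-value Fgf21 stood 40th, 45th and 21st of the 17989 genes. With only the HFD arrays numbered 1 to 4 the 14-day change was 0.73 (limma adjusted p = 0.0967), which did not pass the threshold. It was 1.21, also not past it, with only the 3 arrays at 14 days and 9 controls at or below the median acinar marker mean (limma adjusted p = 0.113).

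Between HFD times the level of Fgf21 was not shown to differ. The order of the means was 7 days, 21 days, 14 days and control. In that order the only neighbours whose means limma called different were 14 days and control. The 14-day mean was below the 7-day mean by a log2 difference of -0.29 (SE 0.19, interval -0.67 to 0.09, limma adjusted p = 0.9998). From 7 to 21 days the difference was -0.09 (interval -0.47 to 0.29, limma adjusted p = 0.926) and from 14 to 21 days 0.20 (interval -0.17 to 0.58, limma adjusted p = 0.999). At 21 days the arrays of Fgf21 were spread more widely than in the other groups, from 5.88 to 7.13 for those numbered 1 to 4 and from 5.64 to 6.46 for those numbered 5 to 8, with means of 6.49 and 5.95.

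Across these comparisons 2 of the 6 measured genes, Fgf21 and Angptl4, rose at 7, 14 and 21 days and 0 fell. The genes were chosen with earlier results of these data known, so this count is not independent support. For comparison, limma called 1.4% of all genes in either direction at 7 days, 0.667% at 14 days and 0.7% at 21 days. Called higher were 1.16%, 0.506% and 0.445%. A gene is called at a Benjamini-Hochberg adjusted p under 0.05 over all genes. The same shares stand beside the counts of the gene lists below, and 0 calls in such a list is near them. An unadjusted p under 0.05 was reached by 3 of the 6 genes at each time, against 9.28%, 5.998% and 6.66% of all genes. The median log2 change of the 6 genes was 0.30 at 7 days, 0.22 at 14 days and 0.10 at 21 days, and that of all genes was -0.01, -0.005 and 0.008. No hepatokine gene of the 6 was called between HFD times, and 0 of them reached an unadjusted p under 0.05 there. Over all genes limma called 0% from 7 to 14 days (451 genes at an unadjusted p under 0.05), 0.00556% from 7 to 21 days (1283) and 0% from 14 to 21 days (715). The 5 genes besides Fgf21 differed by log2 -0.14 to -0.01 from 7 to 14 days, by -0.20 to -0.02 from 7 to 21 days and by -0.17 to 0.09 from 14 to 21 days.

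**Figure D2:**
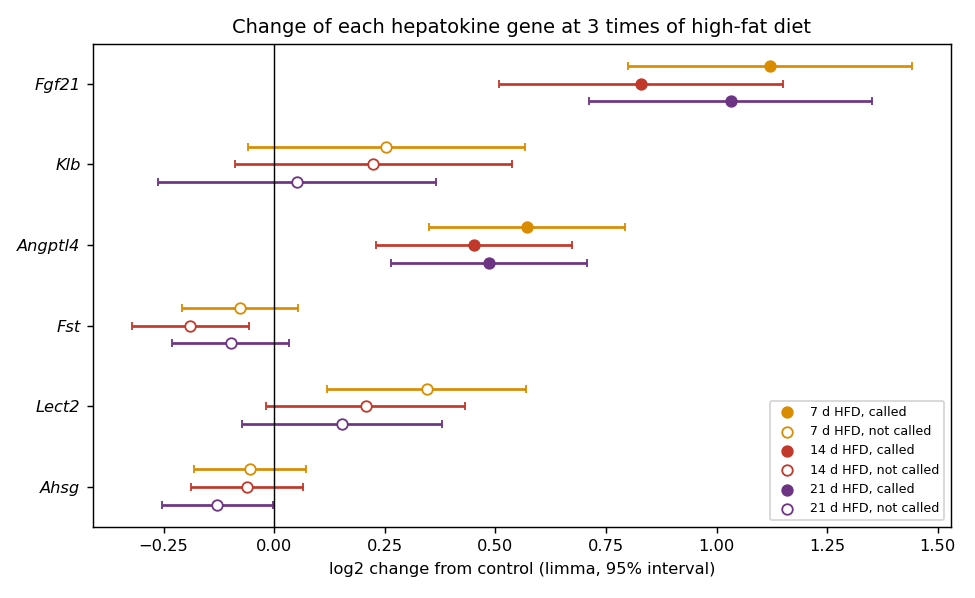
Log2 change from controls (x axis) of each hepatokine gene (y axis) at 7, 14 and 21 days of HFD, with 95% intervals from limma; filled circles passed the adjusted threshold. Fgf21 (0.83 to 1.12) and Angptl4 (0.45 to 0.57) are filled at all 3 times and the other genes at none.

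Angptl4, the lipoprotein lipase inhibitor, was also higher at all 3 times, by less than Fgf21 on the log2 scale. Its control values ran from 4.82 through a median of 5.31 to 5.90. They ran from 5.59 through 5.85 to 6.35 at 7 days, from 5.47 through 5.80 to 6.06 at 14 days and from 5.43 through 5.81 to 6.12 at 21 days. Each HFD group overlapped the controls, with 3 of 8 arrays above every control and 8 of 8 above the control mean at each time. Its mean of 5.32 ± 0.30 (SD, n = 18) in controls compared with 5.89 ± 0.26 at 7 days, 5.77 ± 0.23 at 14 days and 5.81 ± 0.23 at 21 days (n = 8 each).

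The 7-day change of Angptl4 was 1.49-fold (log2 0.57, SE 0.11, interval 0.35 to 0.79, limma adjusted p = 9.08e-04). The 14-day change was 1.37-fold (log2 0.45, interval 0.23 to 0.67, limma adjusted p = 0.0313) and the 21-day change 1.40-fold (log2 0.49, interval 0.26 to 0.71, limma adjusted p = 0.0138). The 14-day call held under 7 of the 16 processing alternatives and was lost under the others, quantile normalization among them (limma adjusted p = 0.121). It was also lost without any 1 of the 14-day arrays numbered 2, 4, 5, 6 or 8 (limma adjusted p up to 0.112). The 21-day call held under 13 of the 16 alternatives and was lost without array 1 of that group (limma adjusted p = 0.0593). Settings that lost it were replicate number as a block, only the controls numbered 10 to 18 and only the HFD arrays numbered 5 to 8 (log2 0.36, limma adjusted p = 0.192). The 7-day call was lost with only those numbered 1 to 4 (log2 0.42, limma adjusted p = 0.153).

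Of the genes around Angptl4 (lipoprotein lipase, its other inhibitors and activators, lipoprotein receptors and transfer protein), 10 of 16 listed were measured. Lpl, the lipase that ANGPTL4 inhibits, fell at 21 days, from 5.36 ± 0.42 (SD, n = 18) in controls to 4.34 ± 0.37 (n = 8), with 5 of 8 arrays below every control (log2 change -1.02, limma adjusted p = 1.19e-04; 0.256% of all genes were called lower). Its change was -0.55 at 7 days (limma adjusted p = 0.0964) and -0.53 at 14 days (limma adjusted p = 0.219). The 21-day call was lost with only the HFD arrays numbered 5 to 8 (limma adjusted p = 0.0517). Pltp, the phospholipid transfer protein gene, rose at 7 days by log2 1.21 (limma adjusted p = 0.00418). That call was lost with only the HFD arrays numbered 5 to 8, only the controls numbered 10 to 18 or only the arrays low in acinar RNA (limma adjusted p up to 0.826). At 7 days 1 of the 10 rose and 0 fell. At 14 days limma called 0 (4 at an unadjusted p under 0.05) and at 21 days 0 rose and 1 fell. The medians were 0.02, -0.02 and 0.01.

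Klb, which encodes beta-klotho, was not called at any time. Control values ran from 5.18 through a median of 6.35 to 6.94, a wide range that held all HFD arrays but 1. They ran from 6.19 through 6.67 to 6.96 at 7 days, from 5.93 through 6.67 to 6.90 at 14 days and from 5.97 through 6.30 to 6.92 at 21 days. The control mean of 6.36 ± 0.45 (SD, n = 18) compared with 6.62 ± 0.27 at 7 days, 6.59 ± 0.29 at 14 days and 6.42 ± 0.39 at 21 days (n = 8 each). The log2 change was 0.25 at 7 days (interval -0.06 to 0.57, limma adjusted p = 0.653), 0.22 at 14 days (interval -0.09 to 0.54, limma adjusted p = 0.958) and 0.05 at 21 days (interval -0.26 to 0.36, limma adjusted p = 0.995). At 21 days its arrays numbered 1 to 4 (5.97 to 6.26) and 5 to 8 (6.35 to 6.92) did not overlap, with means of 6.10 and 6.73; for the other 5 genes these subsets overlapped in every HFD group.

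Receptors and feedback genes of FGF signalling were set beside Klb. Of 21 listed, 19 were measured, among them receptor genes and feedback genes of the Sprouty and Dusp families. Limma called 0 of the 19 at each HFD time (1, 1 and 2 at an unadjusted p under 0.05). Over all genes it called 1.4%, 0.667% and 0.7%, so 0 calls among 19 genes does not set this list apart. The median log2 change of the 19 was -0.003, 0.02 and 0.06. Fgfr4, the main FGF receptor of hepatocytes, had a mean of 6.05 ± 0.50 (SD, n = 18) in controls and had log2 changes of 0.05, 0.04 and -0.14 at 7, 14 and 21 days. At 7 and 14 days these signs turned under quantile normalization. Fgfr1, the receptor through which FGF21 acts in adipose tissue, had changes of -0.17, -0.14 and -0.23, around a control mean of 3.76 ± 0.28 (n = 18).

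Lect2 had values above the control mean on most HFD arrays without passing the threshold. Control values had a lowest of 8.07, a median of 8.67 and a highest of 9.43, and those at 7 days 8.72, 9.08 and 9.45. The 14-day arrays lay between 8.68 and 9.04 (median 8.94) and the 21-day arrays between 8.52 and 9.34 (median 8.88), so every HFD group lay almost wholly inside the control range. All 8 arrays at 7 days were above the control mean, with a log2 change of 0.35 (SE 0.11, interval 0.12 to 0.57, limma adjusted p = 0.142). The change was 0.21 at 14 days (limma adjusted p = 0.894) and 0.15 at 21 days (limma adjusted p = 0.920). The 7-day change passed the threshold with array weights (log2 0.40, limma adjusted p = 0.00380) and without control array 15 (limma adjusted p = 0.0379). With array weights limma called 605 of 17989 genes at 7 days, against 251 in the main fit. Among 18 measured LECT2 receptor genes and pericentral beta-catenin targets, the class to which Lect2 is counted, limma called 0 at each time (1, 1 and 2 at an unadjusted p under 0.05; medians -0.01, -0.02 and -0.04).

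Fst, the activin-binding follistatin gene, was not called at any time. Its control values ran from 3.68 through a median of 3.82 to 4.28. Those at 7 days ran from 3.54 through 3.79 to 3.98, those at 14 days from 3.48 through 3.64 to 3.89 and those at 21 days from 3.61 through 3.74 to 3.95. At 14 days 5 of the 8 arrays lay below every control, while the other 3 overlapped them. The log2 change was -0.08 at 7 days (limma adjusted p = 0.756), -0.19 at 14 days (interval -0.32 to -0.06, limma adjusted p = 0.377) and -0.10 at 21 days (limma adjusted p = 0.894). Of 21 measured activin, receptor and Smad genes, 1 rose at 7 days and 0 fell. Limma called 0 at 14 or 21 days (3 at an unadjusted p under 0.05 at each), and the medians were 0.05, 0.04 and 0.02. The riser was Inhbe, which encodes the subunit of activin E, a hepatokine itself: 6.72 ± 0.59 (SD, n = 18) in controls against 7.53 ± 0.53 (n = 8) at 7 days (log2 change 0.81, limma adjusted p = 0.0320). Its call was lost without control array 2 or without any 1 of the 7-day arrays numbered 1, 2, 3 or 6 (limma adjusted p up to 0.118), and it held under 11 of the 16 processing alternatives. Its later changes were 0.56 at 14 days (limma adjusted p = 0.502) and 0.70 at 21 days (limma adjusted p = 0.167).

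Ahsg, the fetuin-A gene, had the narrowest spread of the 6 genes in controls and was not called. Its control values ran from 12.67 through a median of 12.80 to 13.11, and at 7 days all 8 arrays stayed inside that range (12.68 to 12.85, median 12.75). At 14 days they ran from 12.54 through 12.73 to 13.10 and at 21 days from 12.36 through 12.68 to 12.93, with 3 and 4 arrays below every control. The log2 change was -0.05 at 7 days (limma adjusted p = 0.834), -0.06 at 14 days (limma adjusted p = 0.977) and -0.13 at 21 days (interval -0.25 to -0.002, limma adjusted p = 0.733). With only the HFD arrays numbered 1 to 4 the 21-day change of Ahsg was -0.26 (limma adjusted p = 0.0308). Under that setting limma called 903 of 17989 genes at 21 days, against 126 in the main fit. Other plasma proteins of hepatocytes, from albumin to fibrinogen, gave 0 calls by limma among 22 genes at each time (2, 0 and 2 at an unadjusted p under 0.05), with medians of 0.04, 0.03 and -0.06. The insulin receptor pathway genes, with Tlr4, gave 0 calls among 12 (1, 0 and 1 at an unadjusted p under 0.05; medians 0.09, 0.14 and 0.04). For Gdf15, the stress hormone not analysed here, 6 of 13 listed receptor and p53 target genes were measured. Limma called 0 of the 6 at each time (0, 2 and 0 at an unadjusted p under 0.05; medians 0.04, -0.03 and 0.06).

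The genes known to drive Fgf21 were set beside it. Of 18 measured regulators, 1 rose at 7 days, 1 at 14 days and 0 at 21 days (2 at an unadjusted p under 0.05 by limma), and 0 fell. The medians were 0.10, 0.14 and -0.01. The riser was Ppara itself, which encodes PPAR-alpha. It averaged 7.44 ± 0.31 (SD, n = 18) in controls and 8.10 ± 0.33 (n = 8) at 7 days (log2 change 0.65, limma adjusted p = 0.00265). Its change was 0.55 at 14 days (limma adjusted p = 0.0360) and 0.34 at 21 days (limma adjusted p = 0.530). The 14-day call was lost without any 1 of 11 arrays (limma adjusted p up to 0.143) and held under 9 of the 16 processing alternatives. The 7-day call was lost under 4 of the 16 processing alternatives, among them only the HFD arrays numbered 5 to 8. Creb3l3, which encodes a liver factor that acts with PPAR-alpha on Fgf21, had log2 changes of 0.37, 0.26 and 0.27. Mlxipl, the ChREBP gene, had -0.13, -0.08 and -0.004, and Atf4 -0.20, -0.29 and -0.18. None of these 3 was called by limma at any time, though Creb3l3 passed at 7 days with array weights (log2 0.42) and with only the HFD arrays numbered 1 to 4 (log2 0.58).

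Most other measured PPAR-alpha targets rose as well. Of 28 measured of 33 listed, 21 rose at 7 days, 19 at 14 days and 17 at 21 days, and 0 fell. Limma called 1.16%, 0.506% and 0.445% of all genes higher at these times. The gene lists were chosen with earlier results of these data known, so such counts are not independent support. The median log2 changes of the 28 genes were 0.79, 0.59 and 0.53. The largest belonged to Cyp4a14, a fatty acid omega-hydroxylase (3.64, 3.003 and 3.53), Vnn1, a pantetheinase (3.02, 2.96 and 2.83), and Cyp4a31 (2.85, 2.24 and 2.52). The changes of Fgf21 (1.12, 0.83 and 1.03) were above the median of that list at each time and well below its largest. Among 15 measured ChREBP targets, 7 rose at 7 days, 1 at 14 days and 1 at 21 days, and 0 fell, with medians of 0.46, 0.31 and 0.22. Rgs16, a regulator of G-protein signalling, had the largest change (2.74, 2.77 and 2.24), and Pnpla3 (0.998), a lipid droplet protein gene, and Acaca (0.98), the gene of acetyl-CoA carboxylase, rose at 7 days. With only the arrays low in acinar RNA the calls of these 3 genes were lost at each of those times, with changes of 2.17, 2.07 and 1.58 for Rgs16 (limma adjusted p = 0.0673, 0.419 and 0.338), 1.17 for Pnpla3 and 0.95 for Acaca. The Rgs16 call at 21 days and the Pnpla3 call were also lost with only the HFD arrays numbered 1 to 4, the Pnpla3 call with only the controls numbered 10 to 18, and the Acaca call with only the HFD arrays numbered 5 to 8.

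**Figure D3:**
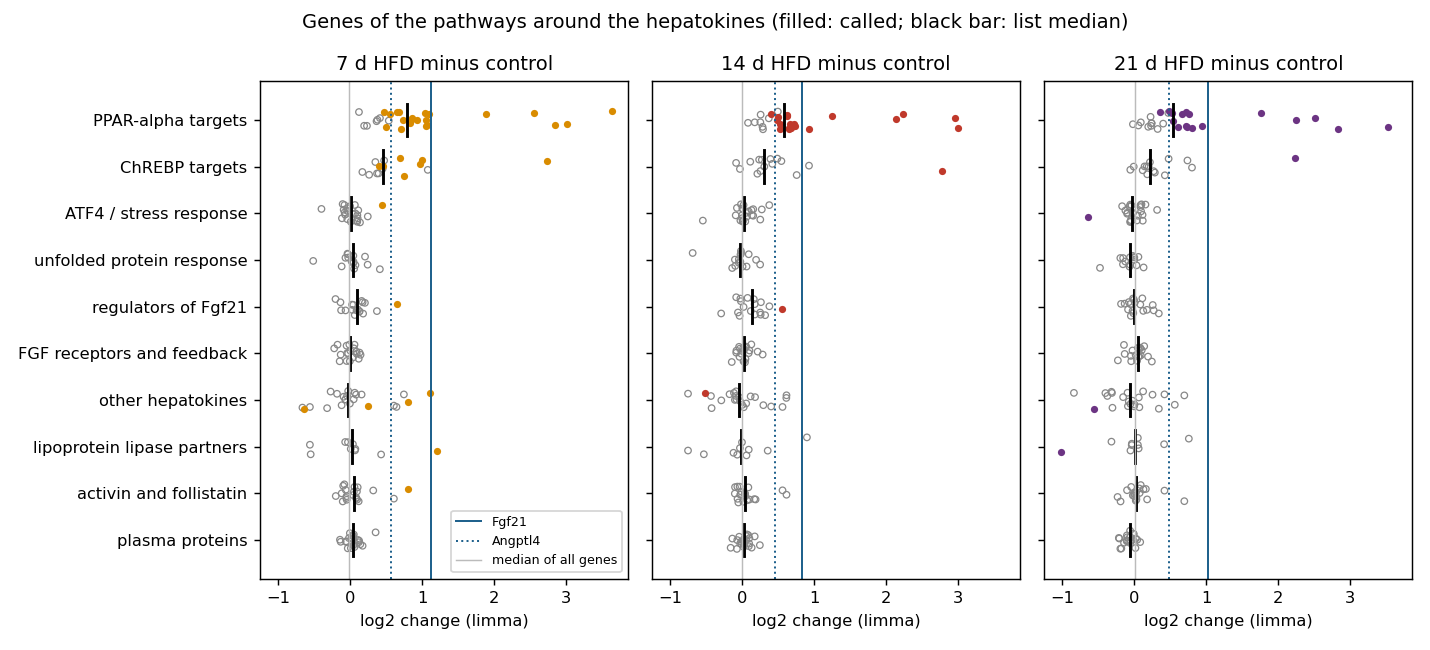
Log2 change from controls (x axes) at 7, 14 and 21 days of HFD (panels) of the genes of 10 lists around the hepatokines (y axis), 1 circle per gene, filled where limma called it, with a black bar at each list's median. Vertical lines mark Fgf21, Angptl4 and the median of all genes; the PPAR-alpha target list has 21, 19 and 17 filled circles and its medians are 0.79, 0.59 and 0.53.

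Genes of the stress responses had single calls or none. Over all genes limma called 1.4% at 7 days, 0.667% at 14 days and 0.7% at 21 days. Among 23 measured ATF4 and integrated stress response genes, 1 rose and 0 fell at 7 days, and 0 rose and 1 fell at 21 days. Limma called 0 at 14 days (2 at an unadjusted p under 0.05), and the medians were 0.01, 0.02 and -0.02. The riser was Xpot, a nuclear export receptor for transfer RNA (log2 0.45, limma adjusted p = 0.00628), a call that held under 12 of the 16 processing alternatives. Asns, the asparagine synthetase gene and a well-known ATF4 target, fell at 21 days, from 4.40 ± 0.47 (SD, n = 18) to 3.76 ± 0.32 (n = 8). All 8 arrays lay below the control mean (log2 change -0.65, limma adjusted p = 0.0253), and the call was lost without any 1 of the 21-day arrays numbered 3, 5, 6, 7 or 8 (limma adjusted p up to 0.0962) and held under 10 of the 16 alternatives. Of 15 genes of the unfolded protein response, limma called 0 at each time (2, 1 and 1 at an unadjusted p under 0.05; medians 0.04, -0.02 and -0.06).

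Further secreted proteins of the liver changed in both directions at 7 days. Of 23 measured of 30 listed, 3 rose and 1 fell at 7 days, and 0 rose and 1 fell at both 14 and 21 days. The medians were -0.03, -0.04 and -0.05. Over all genes limma called 1.16% higher and 0.239% lower at 7 days, and 0.161% and 0.256% lower at 14 and 21 days. Lcn2, an iron-siderophore binding protein of the acute phase, was 4.08 ± 0.21 (SD, n = 18) in controls and 5.20 ± 0.29 (n = 8) at 7 days, with all 8 arrays above every control (log2 change 1.12, limma adjusted p = 6.70e-09). At 21 days Lcn2 averaged 4.42 ± 0.30 (n = 8), with 7 of 8 arrays below all 7-day arrays, and it was the 1 gene called between these HFD times (log2 difference -0.77, SE 0.14, limma adjusted p = 0.0284). It was named for this after its value was seen. The 2 groups differ by the word reanalysis in their titles, and limma called 0 genes there under 8 of the 14 alternatives run for this comparison, among them quantile normalization, array weights and only the 2 groups compared. Enho, the adropin gene, fell at 7 days from 7.10 ± 0.39 (n = 18) to 6.47 ± 0.20 (n = 8; log2 change -0.63, limma adjusted p = 0.0134), a call that held under 11 of the 16 processing alternatives. Orm1, the gene of the acute-phase protein orosomucoid, fell at 14 days (log2 change -0.52, limma adjusted p = 0.0120) and 21 days (-0.56, limma adjusted p = 0.00503). Its 14-day call was lost without array 1 or array 3 of that group (limma adjusted p up to 0.0627). Both calls were lost with only the HFD arrays numbered 5 to 8, only the controls numbered 10 to 18 or only the arrays low in acinar RNA (limma adjusted p up to 0.848 at 14 days and 0.207 at 21 days). Inhbe and, by a log2 change of 0.24, the selenium carrier gene Selenop (limma adjusted p = 0.0294, outside the naming rule and named after its value was seen) were the other risers.

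The levels of some genes followed that of Fgf21 closely over the 42 arrays. Pearson's r with Fgf21 was 0.81 for Ldha, lactate dehydrogenase A, and 0.81 for Plin2, a lipid droplet coat protein. It was 0.79 for Apoa4, an apolipoprotein, 0.77 for Pex11a, a peroxisome division gene, and 0.77 for Mgll, monoacylglycerol lipase. The 99th percentile was 0.49 over all genes other than Fgf21 and those with provisional names (Gm, Rik, LOC or accession-like). These values include the difference between diets: all 5 were called at each HFD time, with log2 changes of 0.54, 0.41 and 0.39 for Ldha, 1.06, 0.72 and 0.67 for Plin2 and 1.84, 1.49 and 1.32 for Apoa4. With only the arrays low in acinar RNA the later calls of Ldha (limma adjusted p = 0.497 at 14 days and 0.118 at 21 days) and Mgll (0.108 and 0.111) and the 14-day call of Plin2 (0.108) were lost. With each group's mean removed, the 5 highest were Tubb2a (0.66), Net1 (0.65), Smagp (0.65), Agpat2 (0.63), an enzyme of glycerolipid synthesis, and Elovl3 (0.62), a fatty acid elongase. The 99th percentile over the same genes was then 0.39. On that measure Ldha had 0.44, Plin2 0.41, Apoa4 0.28, Pex11a 0.31 and Mgll 0.31, so the last 3 lay below the percentile. Tubb2a, Net1, Smagp, Agpat2 and Elovl3 were not called by limma at any time against controls, and Elovl3 had an r of 0.02 over the levels. Angptl4 had an r of 0.48 with Fgf21 over the levels and -0.19 with group means removed. These r are descriptions, with no test, over arrays that share diet groups.

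The relation of the hepatokine genes to RNA of other cells was measured because acinar cells of the pancreas also express Fgf21 and Klb. Of 17 listed acinar markers, digestive enzymes and their partners, 13 were measured, and none was at or below the background level on average. Their mean had a lowest of 3.41, a median of 4.43 and a highest of 8.13 in controls. At 7 days these were 3.56, 5.28 and 9.23, at 14 days 3.47, 5.44 and 9.01 and at 21 days 3.39, 4.19 and 6.21. Limma called 0 of the 13 at each time (1, 0 and 0 at an unadjusted p under 0.05), with medians of 0.76, 0.64 and -0.50. With the acinar mean as a covariate the change of Fgf21 was 1.13, 0.84 and 1.02. With only the arrays at or below the median acinar mean of 4.83 (9 controls and 4, 3 and 5 HFD arrays) it was 1.24, 1.21 and 1.25. The 14-day call of Fgf21 was lost in that subset (limma adjusted p = 0.113). There limma called 14 of all genes at 14 days, against 120 in the main fit.

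Within groups, 11 relations over the 42 arrays were tested by permutation. The deviations of Fgf21 from its group means had r = -0.07 and rho = -0.02 with those of the acinar mean (permutation p = 0.658 and 0.900, adjusted 0.804 and 0.900; r = 0.03 without the 2 arrays farthest from the median). Its r was 0.35 in controls and -0.05, -0.49 and -0.37 at 7, 14 and 21 days. Klb was lower where acinar RNA was higher, with r = -0.39 and rho = -0.41 (permutation p = 0.00841 and 0.00470, adjusted over the 11 relations 0.0925 and 0.0517), neither of which passed after adjustment. Without the 2 farthest arrays its r was -0.48, and by group -0.69 in controls and -0.36, 0.21 and -0.31 at 7, 14 and 21 days. Fgf21 and Angptl4, the 2 genes that rose, had r = -0.19 and rho = -0.24 within groups (permutation p = 0.214 and 0.126, adjusted 0.456 and 0.278; r = -0.25 without the 2 farthest arrays), with -0.27 in controls and -0.41, -0.69 and 0.49 at the 3 HFD times. For the other 8 relations adjusted p lay at 0.188 or above.

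**Figure D4:**
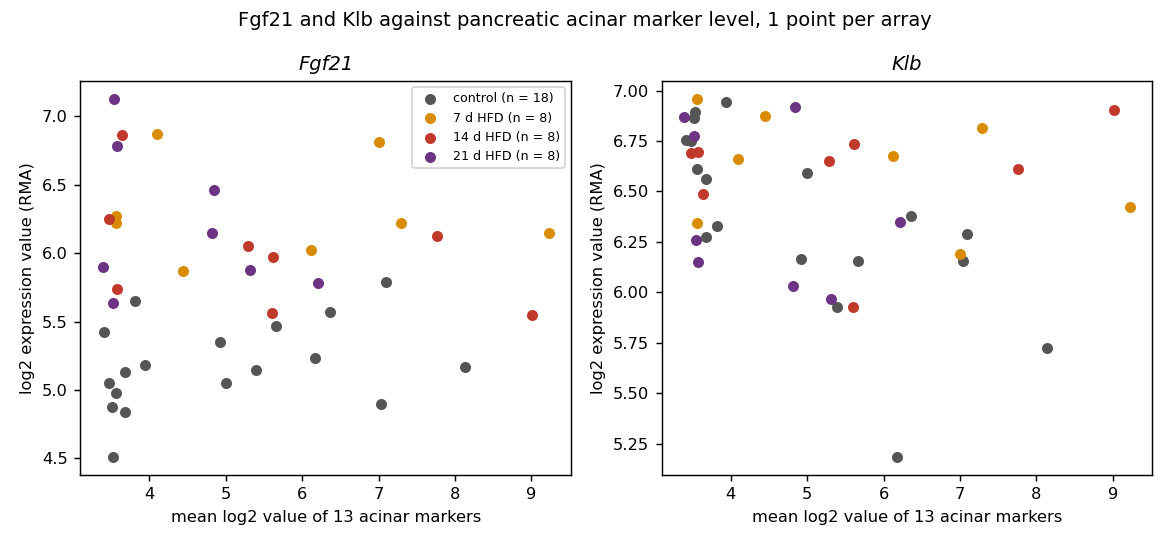
Log2 expression of Fgf21 (left) and Klb (right) on the y axes against the mean log2 value of 13 pancreatic acinar markers on the x axes, 1 point per array, coloured by group (18 controls and 8 arrays at each HFD time). HFD arrays of Fgf21 lie above most controls along the whole x axis, and within-group r is -0.07 for Fgf21 and -0.39 for Klb.

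Some markers of Kupffer cells, the resident liver macrophages, rose at 7 days. The mean of 12 measured of 14 listed ran from 4.85 through a median of 5.12 to 5.45 in controls. It ran from 5.28 through 5.41 to 5.63 at 7 days, from 5.12 through 5.21 to 5.52 at 14 days and from 4.84 through 5.25 to 5.43 at 21 days. Of the 12, Vsig4, C1qc and Cd68 rose at 7 days and 0 fell, while limma called 1.16% of all genes higher. These 3 lie outside the naming rule and were named for their calls. Limma called 0 of the 12 at 14 or 21 days (3 and 0 at an unadjusted p under 0.05). With the Kupffer mean as a covariate the change of Fgf21 was 1.28, 0.90 and 1.08 and that of Angptl4 0.56, 0.45 and 0.48, of which the 14-day value was no longer called (limma adjusted p = 0.0565). The 7-day calls of Ppara, Xpot and Acaca were lost with this covariate, and its part in these results was not tested further. Adipocyte markers, of interest because adipocytes express Angptl4 and Fst, had means from 3.87 to 4.41 over all arrays, with 8 of 9 listed measured and 3 or 4 of these above background in a group. Limma called 0 of the 8 at each time (0, 1 and 1 at an unadjusted p under 0.05).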

How the data were processed

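Liver RNA of 42 samples was hybridised to Affymetrix whole-transcript arrays. RNA came from a miRNeasy kit with DNase treatment and was labelled as sense target, per the labels' protocols. The authors deposited log2 expression values made with RMA, which corrects background, normalizes arrays and summarizes probes, in Affymetrix Expression Console 1.1, per the submitters' processing notes. No build is given for the probe annotation. Of 32624 probe sets, 19559 had 1 gene symbol and were used, 1469 had several and 11596 had none listed; 1 probe set with missing values was left out. The brightest probe set stood for a gene (841 genes had several), giving 17989 genes, dim ones included. Entrez identifiers of 19475 probe sets matched a RefSeq table (GRCm38.p6) and 0 symbols changed. Array medians ran from 3.08 to 3.28, so no scaling was added. Arrays carry no read depth; their number limits the precision.

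The model was a single limma fit (version 3.58.1 in R 4.3.3; lmFit, eBayes) of the 4 groups on the 42 arrays, with 2-sided contrasts and Benjamini-Hochberg adjustment over all genes of a comparison, called under 0.05. The fit was tested on simulated data. Replicate numbers were not taken to pair samples, since the deviations of same-numbered arrays over all genes did not correlate above 0.1 in every pair for any 2 groups. A relation between same-numbered arrays is not excluded by this, since for 14 with 21 days the correlations ran from 0.098 to 0.52. Correlations used 100000 permutations within groups. Promoter windows came from RefSeq; 4 of the 6 measured members had one (Fgf21, Klb, Lect2 and Ahsg).

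Gene lists came from textbook knowledge. The members and lists were chosen with earlier results of these data known. Named were the members, up to 3 called genes of each list per comparison with controls by size of change, Ppara, Atf4, Creb3l3, Mlxipl, Fgfr4 and Fgfr1 whatever their result, and the 5 genes most like Fgf21 by each of the 2 measures. Alternatives covered scaling, the fit, array weights, probe set choice, subsets of the arrays by number, cell marker covariates and each array left out; the Kupffer covariate was chosen after seeing the data.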

Additional observations from a re-analysis of the deposited data

Results flagged for a closer look

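Among the 6 measured genes, Klb at 14 days of HFD had 1 array apart from the others. Array 4 read 5.93, while the nearest of the other 7 read 6.49 and the highest 6.90. This gap was 0.574 of the group's range, above the limit of 0.526 for 8 samples. Of 18 groups of 8 looked at in this way (6 genes at 3 HFD times) this was the single one past the limit, and chance gives about 1 in 20. The acinar marker mean of that array was 5.60, inside the range of its group. The 14-day change of Klb did not pass the threshold with or without this array.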

How the results depend on the processing

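Under 16 alternatives the change of Fgf21 ranged from 1.02 to 1.28 at 7 days, 0.73 to 1.21 at 14 days and 0.76 to 1.30 at 21 days. Its calls at 7 and 21 days held under all 16 (limma adjusted p up to 0.0193 and 0.0283) and with any 1 array left out, as did that at 14 days with any 1 array left out (limma adjusted p up to 0.0156). The replicate block changed the 14-day call of Fgf21 (log2 0.82, limma adjusted p = 0.0502), left 0 of the hepatokine genes called at 14 days and 1 at 21 days, and gave 0.0795 for Fgfr4 at 21 days; the numbers were not taken to pair samples. Deviations of same-numbered arrays correlated between -0.37 and 0.36 for controls with HFD groups, -0.17 and 0.49 for 7 with 14 days and -0.26 and 0.42 for 7 with 21 days. For 14 with 21 days all 8 correlations were positive (0.098 to 0.52, mean 0.29 against -0.04 for unlike numbers), with 2 of 8 arrays closest to their own number. At 14 days Fgf21 also missed the threshold with the HFD arrays numbered 1 to 4 (0.73) and the arrays low in acinar RNA (1.21). From 7 to 21 days the uncalled difference of Fgf21 turned to 0.0126 under quantile normalization, 0.0864 with array weights, 0.20 with HFD arrays 1 to 4 and 0.0101 with low acinar RNA; from 14 to 21 days it turned to -0.16 with HFD arrays 5 to 8. The cause was not tested.

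The number of hepatokine genes called was 2 at each time. At 7 days it was 1 with HFD arrays 1 to 4 and 3 with array weights (Lect2 added). At 14 days it was 1 under quantile normalization, with only the 2 groups compared, with HFD arrays 5 to 8, with controls 1 to 9, with controls 10 to 18 and with the Kupffer covariate, and 0 with HFD arrays 1 to 4 and with low acinar RNA. At 21 days it was 1 with HFD arrays 5 to 8 and with controls 10 to 18, and 3 with HFD arrays 1 to 4 (Ahsg added). Leaving out 1 array gave 2 to 3 members at 7 days, and 1 to 2 at each of the later times.

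Signs that turned, all uncalled, were these. Fgfr4 was -0.0487, -0.28 and -0.092 at 7 days under quantile normalization, HFD arrays 5 to 8 and controls 10 to 18, -0.00898, -0.0821, -0.11 and -0.0300 at 14 days under these and the Malat1 covariate, and 0.00405 at 21 days with controls 1 to 9. Klb at 21 days was -0.0179 with array weights, -0.26 with HFD arrays 1 to 4, -0.0729 with controls 10 to 18, -0.25 with low acinar RNA and -0.0256 with the Kupffer covariate, and -0.0399 at 14 days with low acinar RNA. Lect2 at 21 days was -0.0151 with HFD arrays 1 to 4 and -0.0158 with low acinar RNA, Ahsg at 14 days 0.0118 with HFD arrays 5 to 8 and Fst at 7 days 0.00165 with the Kupffer covariate. Mlxipl was 0.0905, 0.27 and 0.33 with HFD arrays 5 to 8 at 7, 14 and 21 days, 0.11 at 7 days with low acinar RNA, 0.0199 at 14 days with the Malat1 covariate, and 0.0229 and 0.0253 at 21 days with array weights and controls 10 to 18. With 1 array left out, Fgfr4 ran from -0.0154 to 0.14, -0.0268 to 0.18 and -0.25 to 0.0862 at the 3 times, Mlxipl from -0.14 to 0.00903 and -0.072 to 0.11 at 14 and 21 days, and Klb from -0.0206 to 0.12 at 21 days.

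Of 17989 genes, 251 were called at 7 days (208 higher), against 605 with array weights, 163 with the Kupffer covariate, 144 with HFD arrays 5 to 8 and 69 with low acinar RNA; quantile normalization gave 219 (156 higher) and median centring 280 (253 higher). At 14 days 120 (91 higher) compared with 193 with array weights, 77 under the block, 69 and 58 with HFD arrays 1 to 4 and 5 to 8, 61 with controls 10 to 18 and 14 with low acinar RNA. At 21 days 126 (80 higher) compared with 903 and 349 with HFD arrays 1 to 4 and 5 to 8, 71 with controls 10 to 18 and 36 with low acinar RNA.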
